A study of Homo sapiens with 36 samples.

Results

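The 10 polyamine genes were ODC1, AMD1, SRM, SMS, SAT1, SMOX, PAOX, AZIN1, OAZ1 and OAZ2, and their members were all probes that the probe table assigned to these symbols. All 10 of 10 genes had a probe, with 17 probes in all among the 20045 genes measured. RNA came from LNCaP cells, an androgen sensitive prostate cancer line, on 36 Illumina BeadArrays. LNCaP/Empty was the empty vector control, and HIF12 and HIF49 are the clone names the labels give to lines that carry, from a retroviral vector, a HIF1a that is not degraded in the presence of oxygen. LNCaP/Empty and HIF12 were each measured with 1 nM R1881, a synthetic androgen, for 4 h and with 0.01% ethanol vehicle, both after 96 h in charcoal stripped serum, which is depleted of steroids (n = 5 arrays per group). The remaining arrays had the treatment label Normal: 6 of LNCaP/Empty and 5 each of HIF12 and HIF49. What Normal stands for is not stated, and the stripped serum text is attached to every sample, these included. A difference between vehicle and Normal can therefore come from serum, ethanol or time in culture, which cannot be told apart. Likewise, an effect of HIF1a and a feature of 1 clone cannot be told apart. No source says whether replicate arrays stand for separate cultures, so the p-values measure the spread between arrays, which may be technical.

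Polyamines are small positively charged molecules, putrescine, spermidine and spermine, that bind nucleic acids and that dividing cells need. ODC1 makes putrescine from ornithine, AMD1 makes the aminopropyl donor from S-adenosylmethionine, and SRM and SMS use that donor to build spermidine and spermine. SAT1 acetylates both for export or oxidation, PAOX oxidizes the acetylated forms, and SMOX oxidizes spermine directly. The antizymes OAZ1 and OAZ2 bind ODC1 and send it to the proteasome, and the antizyme inhibitor AZIN1 releases it. The prostate makes large amounts of polyamines, which are secreted in the seminal fluid.

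Between 15374 and 17839 probes were detected per array at a detection p under 0.01. Of the 8 luminal prostate markers measured, 7 were detected on all 36 arrays, whereas KRT5, KRT14 and KRT15, the basal markers measured, were detected on none. KLK2, KLK3 and TMPRSS2, known androgen targets, were called higher with R1881 than with vehicle in both lines. HIF1A itself had 3 probes, of which ILMN_1763260 had the largest differences of group means between HIF12 and LNCaP/Empty. Its log2 intensities were from 7.93 to 8.93 on the 16 LNCaP/Empty arrays and from 9.45 to 10.31 on the 15 HIF12 arrays. On the HIF49 arrays this probe was 10.00, 10.19, 10.00 and 10.35 for replicates 2 to 5, but 7.45 for replicate 1. On ILMN_1681283, replicate 1 was at 7.09 and the other HIF49 arrays at 8.78 to 9.08, whereas ILMN_2379788 did not separate the clones from LNCaP/Empty. The array labelled HIF49 replicate 1 thus went against its label and lay farthest from its group over all probes. All values are given with it, and its effect is stated where it changed a call. It enters every comparison through the spread that the groups share.

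Values below are log2 intensities after background correction and quantile normalization, and differences are on the same scale. Adjusted p-values came from limma, fitted to all 36 arrays and adjusted over all probes. A gene was called at an adjusted p under 0.05 with at least a 1.5-fold change on at least 1 probe. The members' counts are also given at an adjusted p under 0.05 whatever the size of the change.

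ODC1 (ILMN_1748591), the first enzyme of the pathway, was lower in vehicle than in Normal in both lines and was higher with R1881 than with vehicle in LNCaP/Empty. In LNCaP/Empty, ODC1 was at 12.42, 12.26, 12.35, 12.28 and 12.49 with vehicle. With R1881, the arrays gave 12.76, 12.94, 12.76, 12.82 and 12.88, all above the vehicle arrays. ODC1 thus rose by 0.47 ± 0.07 (SE) on the log2 scale, or 1.38-fold (adjusted p = 7.1e-06). The 6 Normal arrays of LNCaP/Empty lay between 12.71 and 12.90 with a median of 12.79 and overlapped those with R1881.

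In HIF12, ODC1 was at 12.43, 12.48, 12.49, 12.51 and 12.42 with vehicle. With R1881 it was at 12.56, 12.73, 12.80, 12.69 and 12.45, of which replicate 5 lay within the vehicle range. The difference of 0.18 ± 0.07 (SE) did not pass (adjusted p = 0.36). These are levels in total RNA of whole cultures, in which fewer cells with the transcript and less of it per cell cannot be told apart. The androgen effects of the 2 lines were compared in 1 test, and the effect in HIF12 was smaller by -0.29 (95% confidence interval -0.48 to -0.10) without passing the adjustment over all probes (adjusted p = 1.00). HIF12 Normal arrays were at 12.87, 12.93, 12.88, 12.76 and 12.96, all above the vehicle arrays. HIF49 Normal arrays were at 12.77, 12.79, 12.81, 12.84 and 13.03 and overlapped those of both other lines.

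Against Normal, ODC1 fell with vehicle by 0.43 in LNCaP/Empty (adjusted p = 4.0e-06) and by 0.41 in HIF12 (adjusted p = 2.0e-05). With R1881 the value in LNCaP/Empty differed from Normal by 0.04 (95% confidence interval -0.09 to 0.16), whereas in HIF12 ODC1 stayed below Normal (-0.23, adjusted p = 0.014). The latter did not pass without HIF12 R1881 replicate 5 (-0.18, adjusted p = 0.076), under median scaling (-0.21, adjusted p = 0.10) or when only the compared arrays were fitted (-0.23, adjusted p = 0.091). These comparisons share the same Normal and vehicle arrays and are not independent of each other.

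SRM (ILMN_1661337), spermidine synthase, was lower than in Normal in both lines whether vehicle or R1881 was added. In LNCaP/Empty it was at 10.75, 10.41, 10.54, 10.45 and 10.55 with vehicle, and at 10.67, 10.66, 10.35, 10.31 and 10.56 with R1881. The Normal arrays lay between 11.09 and 11.20, with no overlap. SRM fell by 0.61 with vehicle (1.52-fold, adjusted p = 3.0e-07) and by 0.64 with R1881 (1.56-fold, adjusted p = 1.0e-07). The first of these fell under 1.5-fold without vehicle replicate 2 (-0.57) or replicate 4 (-0.58) while still passing at any size.

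In HIF12, SRM was at 10.74, 10.71, 10.75, 10.78 and 10.66 with vehicle, against 11.17, 11.17, 11.34, 11.13 and 11.20 in Normal. It was at 10.69, 10.67, 10.74, 10.87 and 10.37 with R1881. The vehicle and R1881 groups of HIF12 again lay entirely below Normal, and the falls were 0.47 (adjusted p = 4.9e-05) and 0.53 (adjusted p = 6.4e-06). R1881 against vehicle differed by -0.03 (95% confidence interval -0.19 to 0.13) in LNCaP/Empty and by -0.06 (-0.22 to 0.10) in HIF12. HIF49 Normal arrays were at 11.37, 11.30, 11.20, 11.16 and 11.21, within 0.10 of LNCaP/Empty Normal on average. The order of the 7 groups thus had 1 gap without overlap, between the 4 vehicle and R1881 groups and the 3 Normal groups.

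ODC1 and SRM are both known targets of the transcription factor MYC, which binds the E-box letters CACGTG. RefSeq promoter windows of 250 bases before to 50 after a start were found for 7 of the 10 genes, in 10 windows (GRCh38.p14). On either strand the E-box was present in 2 of the 10 windows, that of SRM and 1 of the 2 of ODC1, against 7.26% of all 35116 windows. The stretches that hold it are shown because these 2 genes were the members that fell, with the E-box in capitals. The first is the 250 bases before the SRM start (chr1:11060019-11060268, minus strand), and the others lie before and across 1 start of ODC1 (chr2:10448024-10448053 and chr2:10447990-10448019, minus strand).
SRM: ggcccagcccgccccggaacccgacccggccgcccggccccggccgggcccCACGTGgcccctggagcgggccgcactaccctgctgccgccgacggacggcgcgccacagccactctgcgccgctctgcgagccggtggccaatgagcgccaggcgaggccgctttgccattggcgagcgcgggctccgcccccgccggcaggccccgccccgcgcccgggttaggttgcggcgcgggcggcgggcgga
ODC1 before the start: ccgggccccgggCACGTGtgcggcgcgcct
ODC1 across the start: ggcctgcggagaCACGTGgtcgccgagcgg
These are matches of letters, and no binding was measured here. As ODC1 and SRM were already known MYC targets and windows of 1 gene can overlap, the count beside 7.26% is not a test. The androgen receptor half-site letters AGAACA, also searched on both strands, were in 0 of the 10 windows and in 14.8% of all windows.

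SAT1 (ILMN_1753342), the acetyltransferase that starts polyamine breakdown, moved in the opposite direction to SRM. In LNCaP/Empty it was at 11.69 to 11.91 in Normal (median 11.78). It was at 12.20, 12.16, 12.12, 12.16 and 12.08 with vehicle, and at 12.44, 12.63, 12.57, 12.50 and 12.55 with R1881. The 3 groups did not overlap. SAT1 rose by 0.35 from Normal to vehicle (adjusted p = 2.9e-05) and by 0.39 ± 0.06 (SE) from vehicle to R1881 (1.31-fold, adjusted p = 4.0e-05). From Normal to R1881 it rose by 0.75, or 1.68-fold (adjusted p = 8.1e-12).

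In HIF12, SAT1 was at 11.70, 11.67, 11.72, 11.80 and 11.66 in Normal, and at 12.06, 12.18, 12.11, 12.18 and 12.01 with vehicle. With R1881 it was at 12.20, 12.27, 12.37, 12.30 and 12.13, of which replicate 5 overlapped the vehicle arrays. SAT1 rose by 0.40 from Normal to vehicle (adjusted p = 1.1e-05) and by 0.54 from Normal to R1881 (adjusted p = 2.8e-08), but the step from vehicle to R1881 was 0.15 ± 0.06 (SE) and did not pass (adjusted p = 0.51). The androgen effect was smaller in HIF12 by -0.25 (95% confidence interval -0.42 to -0.07), which did not pass either (adjusted p = 1.00).

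With R1881, SAT1 was lower in HIF12 than in LNCaP/Empty by -0.28 ± 0.06 (SE), with no overlap of arrays (adjusted p = 0.0032). With vehicle the same comparison gave -0.04 (95% confidence interval -0.16 to 0.08). The difference with R1881 did not pass under median scaling (-0.18, adjusted p = 0.24) or when only the compared arrays were fitted (-0.29, adjusted p = 0.054). HIF49 Normal arrays were at 11.41, 11.57, 11.54, 11.65 and 11.69, where replicate 1 was the lowest. SAT1 was lower there than in LNCaP/Empty Normal by -0.22 (adjusted p = 0.027), and by -0.18 without replicate 1 (adjusted p = 0.11). It also did not pass without HIF49 replicate 2 or 3, or without LNCaP/Empty Normal replicate 1, 3 or 4, with differences from -0.22 to -0.20.

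The upstream 250 bases of SAT1 are shown as those of the member with the widest range of group means, 0.97 over the 7 groups (chrX:23782923-23783172, plus strand, GRCh38.p14). Neither set of letters was found in its window.
SAT1: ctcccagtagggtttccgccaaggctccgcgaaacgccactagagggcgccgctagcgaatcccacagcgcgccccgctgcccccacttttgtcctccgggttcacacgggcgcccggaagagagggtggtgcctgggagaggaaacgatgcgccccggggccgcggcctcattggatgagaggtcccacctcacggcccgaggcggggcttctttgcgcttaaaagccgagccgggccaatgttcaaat

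**Figure D1:**
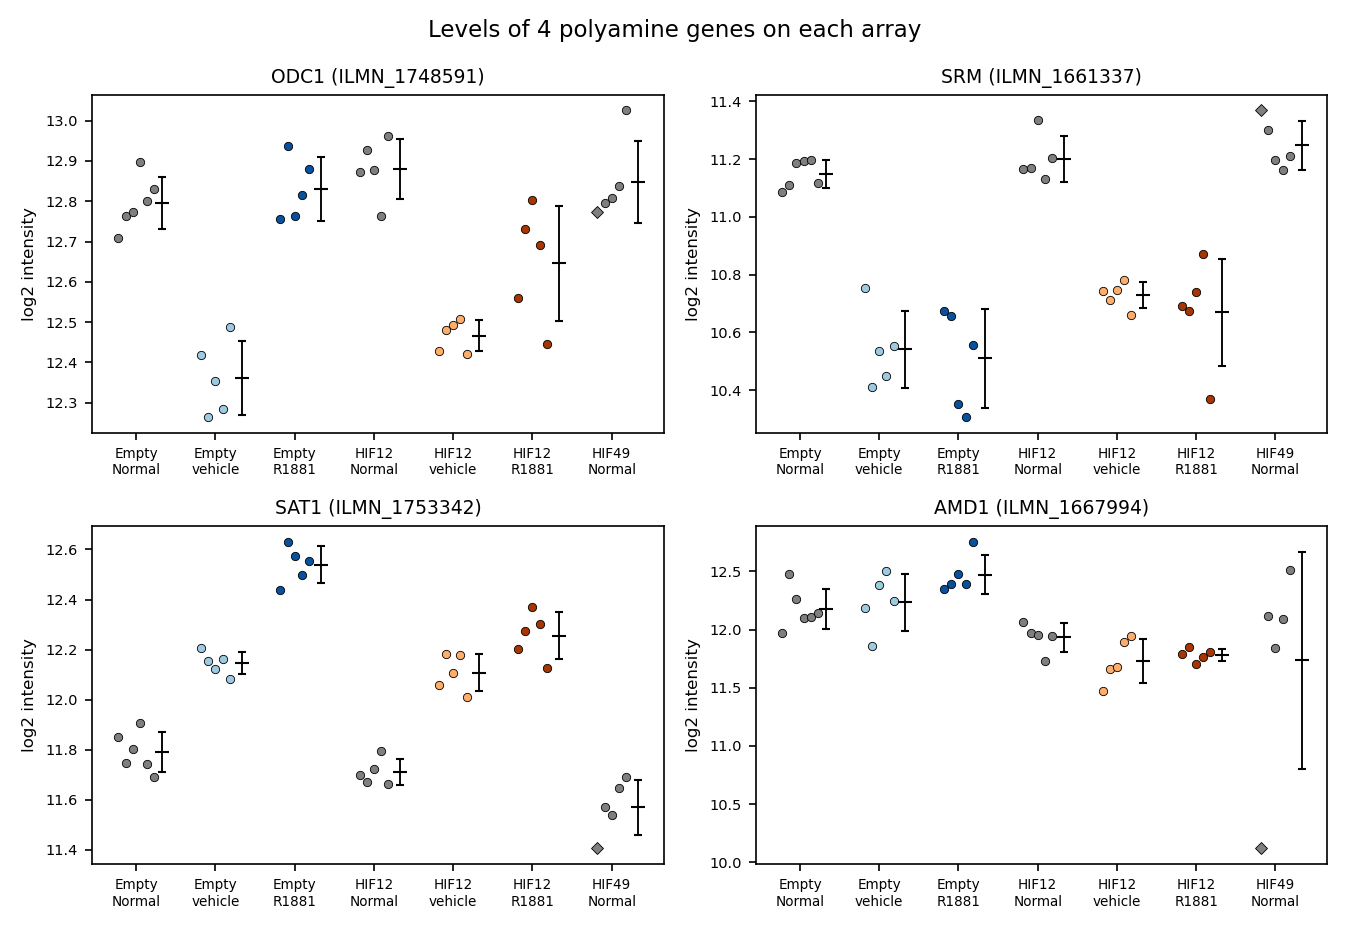
Log2 intensity (vertical axis) of ODC1, SRM, SAT1 and AMD1 on each array, by group, with group mean and SD in black; the diamond marks HIF49 replicate 1. The 5 vehicle arrays of ODC1 in LNCaP/Empty lie at 12.26 to 12.49 below those with R1881 at 12.76 to 12.94, SRM is low in the 4 vehicle and R1881 groups, and AMD1 on HIF49 replicate 1 is at 10.12.

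For AMD1 (ILMN_1667994), S-adenosylmethionine decarboxylase, R1881 arrays of HIF12 lay below those of LNCaP/Empty, and here the call depended on 1 array of another group and on the processing. In LNCaP/Empty with R1881, AMD1 was at 12.34, 12.39, 12.47, 12.39 and 12.76. In HIF12 with R1881 it was at 11.79, 11.85, 11.71, 11.76 and 11.81. Every HIF12 array lay below every LNCaP/Empty array, and the difference was -0.69, or 1.61-fold lower (adjusted p = 0.092).

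On HIF49 Normal arrays AMD1 was at 12.11, 11.84, 12.09 and 12.51 for replicates 2 to 5 and at 10.12 for replicate 1. Without that array, AMD1 was lower in HIF12 with R1881 by -0.69 with an SE of 0.12 in place of 0.23 and was called (adjusted p = 0.00012). It also passed with vehicle (-0.51, adjusted p = 0.0061), where the adjusted p with all arrays was 0.36. With that array kept, AMD1 was also called with R1881 under 5 other settings, namely no background correction, normexp, the deposited normalized table, only probes detected on at least 5 arrays, and array weights (adjusted p from 0.0025 to 0.044). With vehicle, LNCaP/Empty arrays were at 12.18, 11.86, 12.39, 12.50 and 12.24 and HIF12 arrays at 11.47, 11.66, 11.68, 11.90 and 11.94, so that the ranges overlapped.

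In Normal, HIF12 arrays were at 12.06, 11.97, 11.95, 11.73 and 11.95 and LNCaP/Empty arrays at 11.97 to 12.47. The difference of -0.24 did not pass with all arrays (adjusted p = 0.82) or without HIF49 replicate 1 (adjusted p = 0.33). For HIF49 against LNCaP/Empty the difference was -0.44 with replicate 1 and -0.04 without it, and neither passed. R1881 against vehicle differed by 0.24 (95% confidence interval -0.23 to 0.70) in LNCaP/Empty and by 0.06 (-0.41 to 0.52) in HIF12.

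SMS, spermine synthase, had 2 probes, both detected on all 36 arrays. The first (ILMN_1694305) was at 11.48, 11.40, 11.42, 11.32 and 11.17 with vehicle in LNCaP/Empty and at 11.57, 11.75, 11.55, 11.77 and 11.66 with R1881. The ranges did not overlap, but the difference of 0.31 ± 0.09 (SE) did not pass with all arrays (adjusted p = 0.061) and passed without HIF49 replicate 1 (adjusted p = 0.046), HIF49 replicate 5 (0.044) or HIF12 vehicle replicate 1 (0.045) or 4 (0.037). It also passed without background correction, with the deposited normalized table, with only probes detected on at least 5 arrays and with running number blocks of 12 (adjusted p from 0.029 to 0.043). In HIF12 the difference was 0.27 (adjusted p = 0.18), or 0.34 without vehicle replicate 4 (adjusted p = 0.032), with vehicle at 11.01, 11.14, 11.33, 11.52 and 11.24 and R1881 at 11.47, 11.61, 11.47, 11.55 and 11.49. The other probe (ILMN_2225318) gave 0.21 and 0.18, which did not pass (adjusted p = 0.44 and 0.70).

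SMOX, spermine oxidase, had 3 probes that behaved differently. The probe detected on all 36 arrays (ILMN_1775380) passed in no comparison, and its group means spanned 0.40. A dim probe (ILMN_2367258), detected on 12 of 36 arrays, was at 5.64, 5.42, 5.16, 5.58 and 5.29 in HIF12 Normal, where none of the 5 arrays detected it. It was at 6.05, 5.73, 6.18, 5.94 and 6.21 in HIF12 with R1881, where all 5 did. As Normal was not above background, the higher level is at least 1.10-fold (adjusted p = 0.036), and the measured difference was 0.60. With vehicle in HIF12 the probe was at least 1.01-fold higher than in Normal, which did not pass with all arrays (adjusted p = 0.14) and passed without HIF49 replicate 1 (adjusted p = 0.017). The call with R1881 was lost without background correction (0.24, adjusted p = 0.050) and without any 1 of 7 HIF12 arrays (Normal replicates 2, 3 and 5 and R1881 replicates 1, 3, 4 and 5; adjusted p from 0.051 to 0.10). The remaining probe (ILMN_2280707) was detected on 0 arrays.

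PAOX, AZIN1, OAZ1 and OAZ2 passed in no comparison with all arrays. The lead probe of PAOX (ILMN_2363058) had group means from 7.89 to 8.29, that of AZIN1 (ILMN_1656682) from 11.62 to 11.93, and OAZ2 (ILMN_3239460) from 9.06 to 9.63. OAZ1 (ILMN_1773080) had the narrowest range, 15.37 to 15.43. For OAZ1 the 95% confidence intervals of R1881 against vehicle were -0.12 to 0.13 in LNCaP/Empty and -0.13 to 0.12 in HIF12. In HIF12, R1881 against Normal came near the threshold for PAOX (0.32, adjusted p = 0.053) and OAZ2 (0.56, adjusted p = 0.076). Both passed without HIF49 replicate 1 (adjusted p = 0.0092 and 0.043), under 1.5-fold. AZIN1 on ILMN_1704550, detected on 28 of 36 arrays, was then called as 1.54-fold lower (-0.62, adjusted p = 0.042), against an adjusted p of 0.15 with all arrays.

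**Figure D2:**
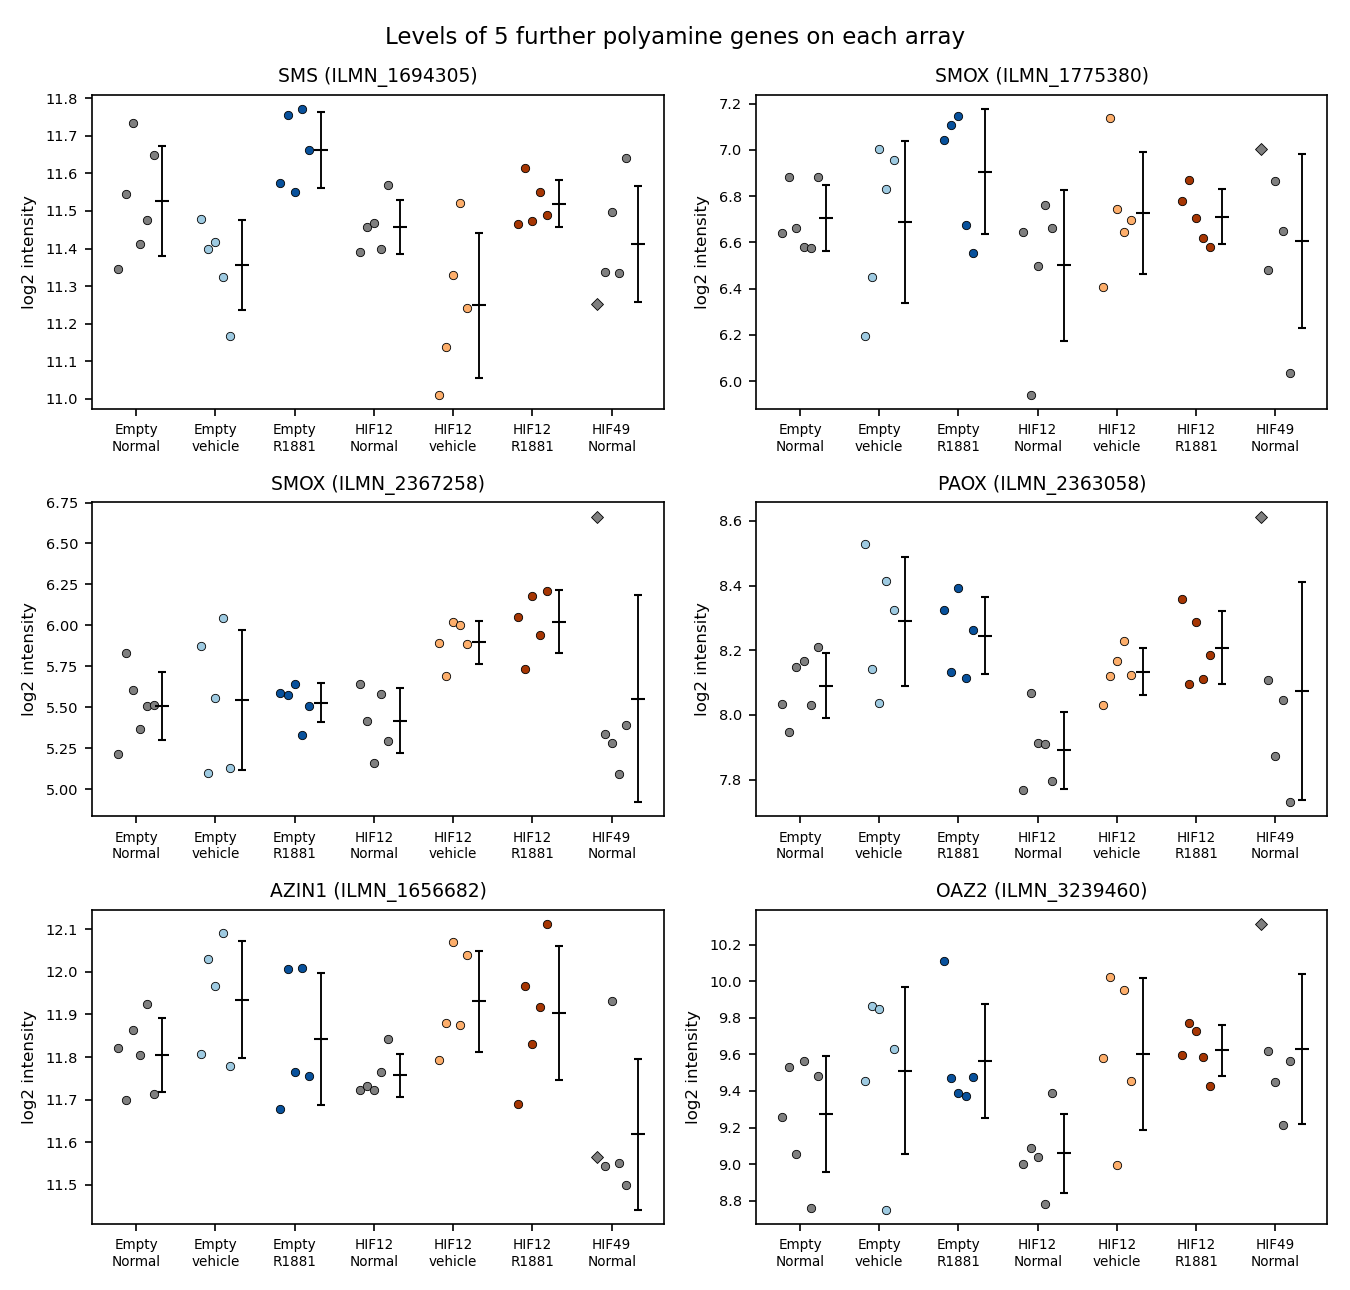
Log2 intensity (vertical axis) of SMS, SMOX, PAOX, AZIN1 and OAZ2 on each array, by group, with group mean and SD in black; the diamond marks HIF49 replicate 1. SMS with R1881 lies at 11.55 to 11.77 in LNCaP/Empty, above its vehicle arrays, and the dim SMOX probe is at 6.66 on HIF49 replicate 1 against 5.09 to 5.39 on the other HIF49 arrays.

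Counted over the 10 genes, R1881 against vehicle in LNCaP/Empty called 0 at 1.5-fold, where 1.81% of all genes were called. At any size 2 were higher (ODC1 and SAT1), where 3.15% of all genes passed, and 3 had an unadjusted p under 0.05. Counts at an unadjusted p under 0.05, here and below, take any probe of a gene. The share of all genes at that cutoff was not computed, so these counts cannot show an excess of members. The median member differed by 0.14 and the median of all genes by -0.01. In HIF12, R1881 against vehicle called 0 members at 1.5-fold and 0 at any size in limma, beside 1.30% and 2.17% of all genes, while 3 members (ODC1, SMS and SAT1) had an unadjusted p under 0.05. The difference of the androgen effects passed for 0 members, beside 0.00998% of all genes at 1.5-fold and 0.00998% at any size, and 2 (ODC1 and SAT1) had an unadjusted p under 0.05.

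For HIF12 against LNCaP/Empty, 0 of the 10 genes were called at 1.5-fold in vehicle, with R1881 or in Normal, where 1.86%, 2.72% and 2.02% of all genes were called. At any size the counts were 0 in vehicle (4.86% of all genes), 1 with R1881, SAT1 (6.99%), and 0 in Normal (5.22%). The counts at an unadjusted p under 0.05 were 2, 4 and 1. Without HIF49 replicate 1, AMD1 was called with R1881 (3.05% of all genes) and AMD1, SAT1 and SMOX passed at any size (10.6%). The median member differed by 0.01, -0.09 and -0.07, and the median gene by 0.01, 0.01 and 0.00. For HIF49 against LNCaP/Empty, 0 were called at 1.5-fold (1.73% of all genes) and SAT1 alone passed at any size (4.96%). For HIF49 against HIF12, 0 were called (3.21%) and 0 passed at any size (8.27%), with 3 at an unadjusted p under 0.05.

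For vehicle against Normal, more members and more of all genes passed than for R1881 against vehicle. In LNCaP/Empty 1 was called at 1.5-fold, SRM (6.22% of all genes), and 3 of 10 passed at any size, SAT1 higher and ODC1 and SRM lower (18.0%). In HIF12, 0 were called at 1.5-fold (6.53%) and the same 3 genes passed at any size (16.9%), joined by SMOX without HIF49 replicate 1 (20.4%). At an unadjusted p under 0.05 there were 7, again without a share of all genes to set beside it. The median member differed by 0.02 in LNCaP/Empty and by 0.10 in HIF12, beside -0.01 and 0.00 over all genes. For R1881 against Normal, SAT1 and SRM were called in LNCaP/Empty (7.03%) and the same 2 passed at any size (19.6%). In HIF12, SMOX was called (7.51%), and SAT1, SMOX, ODC1 and SRM passed at any size (19.1%). The SMOX call came from the dim probe ILMN_2367258, detected on 0 HIF12 Normal arrays, and its minimum fold is below 1.5-fold. Without HIF49 replicate 1, AZIN1 was called as well (7.74%) and 7 passed at any size (22.4%).

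**Figure D3:**
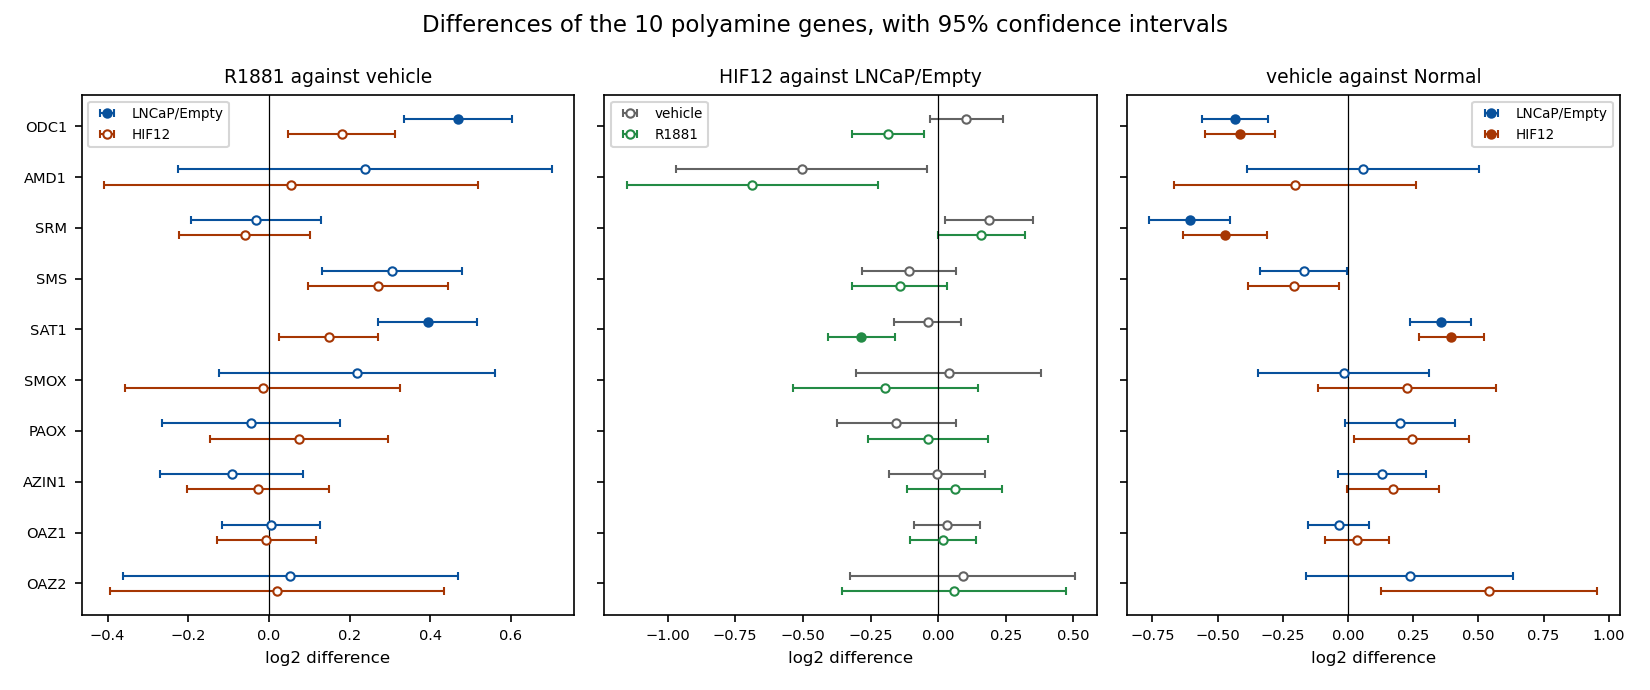
Log2 differences (horizontal axis) of the probe detected on most arrays of each of the 10 genes, with 95% confidence intervals; filled points had an adjusted p under 0.05. For R1881 against vehicle, ODC1 at 0.47 and SAT1 at 0.39 in LNCaP/Empty are filled, and ODC1, SRM and SAT1 are filled in both lines for vehicle against Normal.

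The genes around the pathway were read from 5 lists with 40 genes, of which 38 had a probe. None of them passed in R1881 against vehicle at any size in LNCaP/Empty or in HIF12, where only 3.15% and 2.17% of all genes passed. Some of them passed between vehicle and Normal, where 18.0% of all genes passed at any size in LNCaP/Empty and 16.9% in HIF12, and between HIF12 and LNCaP/Empty.

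Among catabolic enzymes and regulators (7 of 7 measured), NQO1, a quinone reductase known to protect ODC1 from degradation, was called higher with vehicle than in Normal in both lines. AOC1, the diamine oxidase that degrades putrescine, was also higher, but from levels not above background. With SAT2, 3 of the 7 rose at any size in each line and 0 fell, where 18.0% of all genes passed in LNCaP/Empty and 16.9% in HIF12, and the list's median difference was 0.22 in LNCaP/Empty and 0.16 in HIF12, beside -0.01 and 0.00 over all genes. NQO1 (ILMN_1720282) had means of 11.21 ± 0.07 (SD, n = 6) in Normal and 11.85 ± 0.09 (n = 5) with vehicle in LNCaP/Empty, and of 10.19 ± 0.17 (n = 5) and 11.42 ± 0.12 (n = 5) in HIF12. It rose by 0.64 and 1.23 (adjusted p = 2.6e-06 and 6.4e-12). AOC1 was detected on 0 Normal arrays of either line and on 5 of 5 HIF12 vehicle arrays, where it was at least 1.58-fold higher (adjusted p = 2.5e-12). In LNCaP/Empty 2 of 5 vehicle arrays detected it, and the bound of at least 1.01-fold (adjusted p = 1.7e-07) is below 1.5-fold. SAT2, a relative of SAT1, also rose, by 0.39 and 0.40.

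Of the 8 genes that supply arginine and ornithine, OAT, ornithine aminotransferase, was called lower with vehicle in both lines, and ASS1, argininosuccinate synthase, higher. At any size 1 rose and 2 fell in LNCaP/Empty, and 1 rose and 3 fell in HIF12, beside 18.0% and 16.9% of all genes that passed, with median differences of -0.06 and 0.01. OAT (ILMN_2068747) had means of 7.41 ± 0.11 (SD, n = 6) in Normal and 6.44 ± 0.19 (n = 5) with vehicle in LNCaP/Empty, a fall of 0.97 (adjusted p = 1.4e-07). In HIF12 the means were 6.85 ± 0.15 (n = 5) and 5.87 ± 0.19 (n = 5), again a fall of 0.97 (adjusted p = 3.3e-07). Only 3 of 5 HIF12 vehicle arrays detected this probe. ASS1 (ILMN_1708778) rose by 0.67 and 0.76 (adjusted p = 1.5e-07 and 3.1e-08).

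Of the 11 genes of the methionine cycle and salvage, MTAP, which recycles the by-product of spermidine and spermine synthesis, was called lower with vehicle in both lines. At any size 4 of the 11 fell and 0 rose in each line, beside the same 18.0% and 16.9% of all genes, with median differences of -0.23 and -0.03. MTAP fell by 0.87 in LNCaP/Empty (adjusted p = 5.1e-10) and by 0.75 in HIF12 (adjusted p = 3.6e-08). GNMT, glycine N-methyltransferase, which consumes S-adenosylmethionine, fell by 0.94 (adjusted p = 4.6e-07) and 0.58 (adjusted p = 0.0014). For MAT2B, a regulatory subunit of methionine adenosyltransferase, the probes disagreed. ILMN_1673960, detected on 4 of 5 HIF12 vehicle arrays, was called lower in HIF12 (-0.92, adjusted p = 0.017), whereas ILMN_1811367, detected on every array, differed by 0.05 (95% confidence interval -0.13 to 0.23).

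Of the 8 transport genes measured, SLC7A1, the cationic amino acid transporter that carries arginine and ornithine, fell with vehicle by 0.81 in LNCaP/Empty (adjusted p = 1.3e-09) and by 0.38 in HIF12 (adjusted p = 0.0012). SLC12A8 fell by 0.62 (adjusted p = 1.2e-05) and 0.40 (adjusted p = 0.0063). These 2 of 8 fell in each line and 0 rose, a share close to the 18.0% and 16.9% of all genes that passed, with median differences of -0.23 and -0.14. None of the 4 genes of hypusine synthesis, the modification of EIF5A that uses spermidine, passed in this comparison in either line, beside the same 18.0% and 16.9%.

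**Figure D4:**
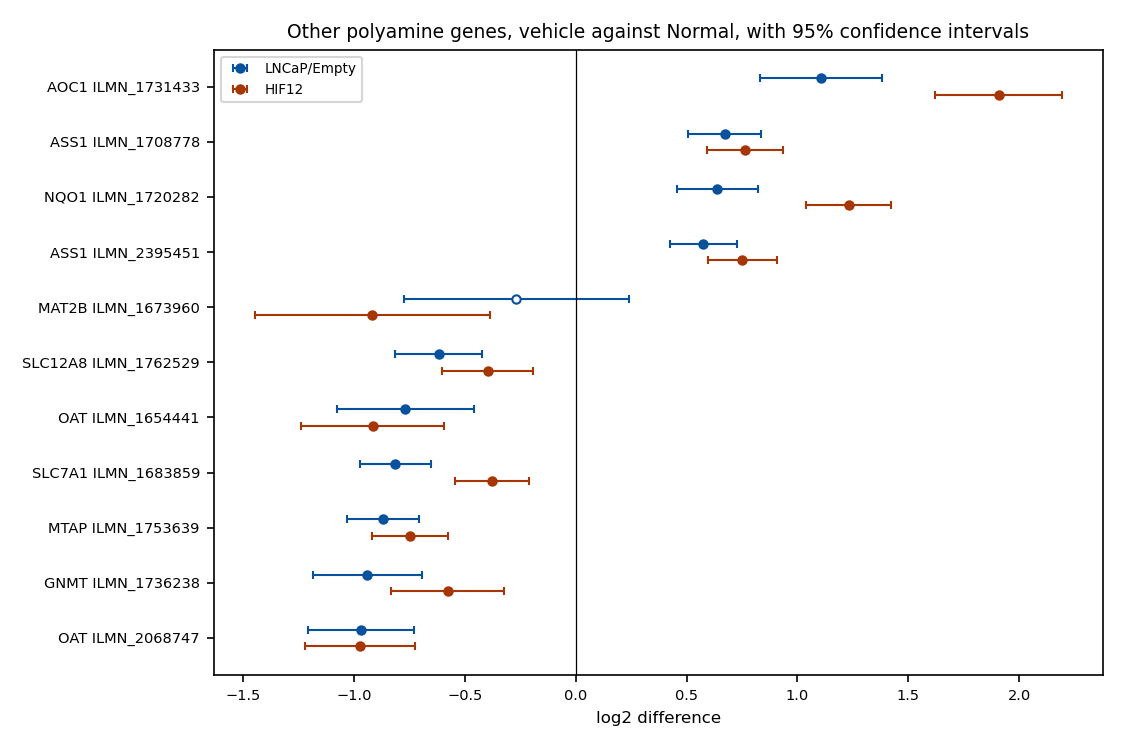
Log2 differences of vehicle against Normal (horizontal axis), with 95% confidence intervals, for each probe of the other polyamine genes called in either line; filled points had an adjusted p under 0.05. OAT fell by 0.97 in both lines on ILMN_2068747 while NQO1 and AOC1 lie to the right of 0.

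Between the lines, HIF12 had lower OAT and GNMT than LNCaP/Empty, both called in vehicle, with R1881 and in Normal. OAT (ILMN_2068747) was lower by -0.57, -0.89 and -0.57 (adjusted p = 0.0042, 6.7e-06 and 0.0021). In vehicle and in Normal the 1.5-fold call came from its other probe, ILMN_1654441. In HIF12, ILMN_2068747 was detected on 3 of 5 vehicle and 2 of 5 R1881 arrays, and ILMN_1654441 on 2 of 5 and 4 of 5. With R1881, ILMN_1654441 had means of 5.95 in HIF12 and 6.21 in LNCaP/Empty and did not pass. The size of the OAT difference with vehicle and with R1881 is thus uncertain. GNMT (ILMN_1736238) was lower by -0.77, -0.76 and -1.13 (adjusted p = 0.00014, 0.00015 and 2.9e-08). In HIF49 against HIF12 in Normal, OAT was higher by 0.59 (adjusted p = 0.0014), GNMT by 0.99 (adjusted p = 8.0e-07) and NQO1 2.37-fold (adjusted p = 8.2e-12). NQO1 was lower in HIF12 Normal than in LNCaP/Empty Normal by -1.03 (adjusted p = 4.3e-10). AOC1 had measured differences of 0.63 with vehicle (adjusted p = 0.0069) and 0.71 with R1881 (adjusted p = 0.0014), but only 2 of 5 and 1 of 5 LNCaP/Empty arrays detected it, against 5 of 5 in HIF12, so that their size is uncertain. OAZ3, the testis antizyme, was called higher in HIF49 than in LNCaP/Empty (0.61, adjusted p = 0.0015). In the same comparison OAT, GNMT and NQO1 did not pass. Their means on the probes above were 7.44, 7.92 and 11.43 in HIF49 Normal, beside 7.41, 8.06 and 11.21 in LNCaP/Empty Normal.

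For the 3 members with the widest range of group means, the genes with the most similar pattern were found as those with the smallest root mean square difference between centred means of the 7 groups, among 9963 genes. For SRM they were POLR3E (0.03), SMC4 (0.04) and OTUD6B (0.04). For SAT1 they were SERF1B (0.07), HBP1 (0.07) and WASHC3 (0.09). For AMD1 they were BCL10 (0.09), PSMC4 (0.10) and SNORA18 (0.10), and this pattern includes the HIF49 array whose HIF1A level went against its label. These are descriptions over 7 group means.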

How the data were processed

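The authors deposited scanner intensities per probe with detection p-values for all 36 arrays, neither background corrected nor normalized. Per the labels and the study's methods, total RNA was hybridised as biotin-labelled target. The authors also deposited a table of normalized intensities, used as an alternative only. Intensities of the 48105 probes without missing values were background corrected with nec (offset 16, controls inferred from the detection p-values), quantile normalized and log2 transformed with limma 3.58.1 in R 4.3.3. No filter on dim probes was used. Of 48107 probes, 30112 of those tested carried 1 gene symbol, 8 several and 17985 none. Group means of all 7 groups were fitted together (lmFit, eBayes), with Benjamini-Hochberg adjustment over all probes. Where a group had no array with a detection p under 0.01, a fold is printed as a minimum, taken over the lowest signal among detected probes. The scripts were tested on simulated data. Array number limits the precision.

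The members, the gene lists and the 12 comparisons were chosen with earlier results of these data known. Named genes were all members, up to 3 called genes per other list and comparison, HIF1A, and the 3 genes nearest in pattern to each of 3 members. Of the called genes, MTR, ARG1 and ATP13A3 were not taken up in the results. Alternatives replaced the background step (none, or normexp with offset 50) or the normalization (scaling by medians, cyclic loess, or the values the authors normalized), restricted the fit to probes detected on 5 or more arrays or to the groups of a comparison, added blocks by replicate number or by running number (6 or 12 arrays each), weighted arrays, or left out each array. The count at any size was added after the values were seen. The study names another Illumina array than the probe table, whose names were used as given. RefSeq supplied promoter sequences.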

Additional observations from a re-analysis of the deposited data

Results flagged for a closer look

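Of 119 groups of arrays examined over the 17 probes, 8 held 1 array farther from the others than a test for single outlying values allows, and 5 of these had their probe detected on every array of the group. Chance alone marks about 1 in 20 groups.

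On the HIF49 Normal arrays, AMD1 was at 10.12 on replicate 1 against 11.84 to 12.51 on the others, and the dim SMOX probe ILMN_2367258 was at 6.66 against 5.09 to 5.39, again on replicate 1. On the same arrays ODC1 was at 13.03 on replicate 5 against 12.77 to 12.84, and AZIN1 (ILMN_1656682) was at 11.93 on replicate 3 against 11.50 to 11.57.

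SMS (ILMN_2225318) was at 11.45 on HIF12 Normal replicate 2 against 11.18 to 11.25. OAZ2 was at 10.11 on LNCaP/Empty R1881 replicate 1 against 9.38 to 9.47. With vehicle in HIF12, PAOX (ILMN_2278265) was at 5.61 on replicate 3 against 5.30 to 5.38, where 0 of 5 arrays detected it, and AZIN1 (ILMN_1704550) was at 5.15 on replicate 1 against 6.18 to 6.32.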

How the results depend on the processing

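The changes of ODC1, SRM and SAT1 between vehicle and Normal and those of ODC1 and SAT1 with R1881 in LNCaP/Empty passed at any size in all 47 settings. Of 26 single differences followed, 17 kept their direction and their side of the threshold throughout. Settings and their counts of member genes were as follows, where causes were not tested. Shares of all genes were not computed for these settings, and among left-out arrays only for HIF49 replicate 1, given above. The counts here and in the next paragraph thus cannot show an excess of members. For HIF12 against LNCaP/Empty with R1881, 1 gene, AMD1, was called in place of 0 without background correction, with normexp, with the deposited normalized table, with only probes detected on at least 5 arrays, with only the compared arrays and with array weights. At any size the same settings gave 2 in place of 1, which with only the compared arrays were AMD1 and SMOX, without SAT1. Array weights gave 1 in place of 0 at any size in vehicle. For HIF49 against LNCaP/Empty at any size, normexp, median scaling, the compared arrays and array weights gave 0 in place of 1. For HIF49 against HIF12, cyclic loess, the detection filter and both running number blocks gave 1, PAOX, in place of 0 under either count. With all arrays, the PAOX probe past 1.5-fold there was ILMN_1765116, detected on 23 of 36 arrays and on 1 of 5 HIF12 Normal arrays. Its means were 6.08 in HIF49 and 5.48 in HIF12 Normal, whereas those of the lead probe ILMN_2363058 were 8.07 and 7.89. For vehicle against Normal in LNCaP/Empty, 0 in place of 1 were called without background correction, with normexp and with the deposited table, as SRM differed by -0.58 in each. In HIF12 the detection filter and array weights gave 5 in place of 3 at any size. For R1881 against Normal in HIF12, no background correction, normexp, the deposited table and both running number blocks called 0 in place of 1, median scaling and the compared arrays called 2, and array weights called 1, AZIN1 and not SMOX, and gave 7 in place of 4 at any size. Median scaling moved the median of the probes detected on all arrays by 0.12 in HIF12 against LNCaP/Empty with R1881, beside which SAT1 gave -0.18.

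Leaving out 1 array at a time, called counts ranged from 0 to 1 for HIF12 against LNCaP/Empty with R1881, for HIF49 against HIF12 (PAOX without HIF12 Normal replicate 3 or 4 or vehicle replicate 4), and for vehicle against Normal in each line (in HIF12, PAOX without the same arrays and OAZ2 without vehicle replicate 3), and from 0 to 2 for R1881 against Normal in HIF12. At any size the ranges were 2 to 3 for R1881 against vehicle in LNCaP/Empty, 0 to 1 for R1881 against vehicle in HIF12, HIF12 in vehicle, HIF49 against LNCaP/Empty and HIF49 against HIF12, 1 to 3 for HIF12 with R1881, 3 to 5 for vehicle and 2 to 7 for R1881 against Normal in HIF12. AMD1 (ILMN_1667994) in HIF49 against HIF12 ranged from -0.39 to 0.21, turning positive without HIF49 replicate 1, and was 0.083 with array weights against -0.20.

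Replicate numbers were not used to pair arrays: correlations of same-numbered deviations ran from -0.41 to 0.39, and in 0 of 11 comparisons were all over 0.1. In R1881 against vehicle in HIF12, 4 of 5 pairs were over 0.1, so some pairing there stays possible. With the replicate block, the count of member genes called stayed at 0 for R1881 against vehicle in LNCaP/Empty, and no count moved by over 1.5 times. Signal over background limits the probes of SMOX and PAOX that few or no arrays detected. It also limits PAOX ILMN_1765116, detected on 1 of 5 HIF12 Normal arrays. With vehicle and in Normal in HIF12 this PAOX probe had means of 6.005 and 5.48, and the lead probe of PAOX 8.13 and 7.89.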
